A study of Mus musculus with 12 samples.

Results

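The 40 genes described here encode the ephrin, Slit and netrin guidance systems: 14 Eph receptors, 8 ephrins, 3 Slits, 4 Robo receptors, 5 netrins and netrin-Gs, and 6 netrin receptors. They were chosen by name, as protein-coding genes with Eph, ephrin, Slit, Robo, netrin, netrin-G or Unc5 symbols plus Dcc and Neo1, and make up 40 of the 25700 genes in the count table. RNA was measured in Schwann cells (SCs) of the sciatic nerve of P5 mice, an age at which some SCs already myelinate single axons and others do not. The 12 libraries came from 3 sorting gates with 4 mice each: allSC, holding all eYFP-positive cells, mSC, enriched in myelinating SCs, and nmSC, enriched in SCs that do not myelinate. All mice, in every gate, carried P0Cre (a Cre transgene active in the SC lineage), a reporter giving eYFP after recombination (ReYFP) and a ubiquitous βAct-DsRed transgene. No gate held an untreated or wild-type control, each gate pooled the sorted cells of 1 mouse per library, and the gates enrich for a state rather than isolate it. Of the 4 mice per gate, 2 were male and 2 female, and because no label ties a sex to a library, sex entered no comparison.

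Eph receptors are the largest family of receptor tyrosine kinases. A-class receptors mainly bind ephrin-As, which are held in the membrane by a lipid anchor, and B-class receptors mainly bind ephrin-Bs, which span the membrane and can themselves signal into the cell that carries them. Contact between an ephrin and its receptor on neighbouring cells often makes the cells withdraw, and in cut nerves EphB2 on SCs is known to meet ephrin-B on fibroblasts and to group the SCs into cords through Sox2 and N-cadherin. Slits are secreted proteins that repel through Robo receptors, and netrins attract through DCC and neogenin or repel through UNC5 receptors. Netrin-Gs are membrane-anchored relatives of netrins that bind NGL adhesion proteins and not DCC.

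The libraries held 8180927 to 16918122 counts, so 3 counts corresponded to 0.177 to 0.367 CPM (counts scaled to a common library size). The gates carried the markers their labels call for: the myelin genes Mbp and Ncmap were 49231 to 56832 and 1591 to 3017 CPM in mSC and 5184 to 6377 and 159 to 223 CPM in nmSC, while Ngfr, Ncam1 and L1cam together reached 71.9 to 127 CPM in mSC and 818 to 1138 CPM in nmSC. The proliferation genes Mki67 and Top2a summed to 35.5 to 57.9 CPM in mSC and 474 to 609 CPM in nmSC. The library of mSC replicate 4 stood apart, with 13933 genes at 10 or more counts and the lowest correlation with its own gate (r = 0.979 across genes). Fold changes without it are therefore given for the called members averaging at least 10 CPM in which it was the low point of its gate. These were Ephb6, Epha6, Epha5, Epha7, Efnb1 and Slit2. Lists of endothelial, fibroblast-like, pericyte and smooth muscle, immune and neuronal markers had summed levels of 20.6 to 30.8, 7.04 to 9.79, 74.7 to 196, 13.0 to 20.8 and 13.0 to 20.9 CPM in mSC and 7.72 to 15.9, 10.95 to 16.8, 76.1 to 117, 18.5 to 26.9 and 9.24 to 14.4 CPM in nmSC. The pericyte and smooth muscle sum was the highest of these and spread widely within mSC. No marker on these lists was at 0 in every library. Between mSC and nmSC, 1 of 4 tested endothelial markers was higher in mSC (Kdr) and 1 higher in nmSC (Pecam1), 1 of 4 fibroblast-like, 1 of 3 immune and 1 of 4 neuronal markers were higher in nmSC, and of 5 pericyte markers 1 was higher in mSC and 2 in nmSC. Their part in the results was not tested.

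The sort was designed to set SCs in the myelinating state against those outside it, so mSC was compared with nmSC first. Of the 40 guidance genes, 38 had enough counts to be tested, and Epha8 and Ntn4 did not. Among the members called below, Efnb2 and Epha1 had enough only through their nmSC libraries, the gate where both were called higher. At an adjusted p under 0.05 (edgeR quasi-likelihood test), 12 of the 38 (31.6%) were higher in nmSC and 6 (15.8%) were higher in mSC; over all 18597 genes tested, 20.2% were higher in nmSC and 20.4% in mSC. Calls in either direction made up 40.5% of all genes. With the library size alone in place of TMM scaling the split became 28 higher in nmSC and 3 higher in mSC; this scaling also moved the median of the log2 fold changes over all tested genes from −0.16 to −0.73. The median log2 fold change (mSC over nmSC) of the 38 was −0.53. Without mSC replicate 4, 13 were higher in nmSC and 6 in mSC. The mSC and nmSC libraries did not overlap at all for 11 members that were higher in nmSC and 5 that were higher in mSC, against 17.4% and 16.8% of all tested genes (34.2% in either direction). Since whole sorted cells were measured in bulk, fewer cells expressing a gene and less of its RNA per cell cannot be told apart. Each library came from 1 mouse, and the number that libraries of the 3 gates share in the labels' subject field was read as the mouse.

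**Figure D1:**
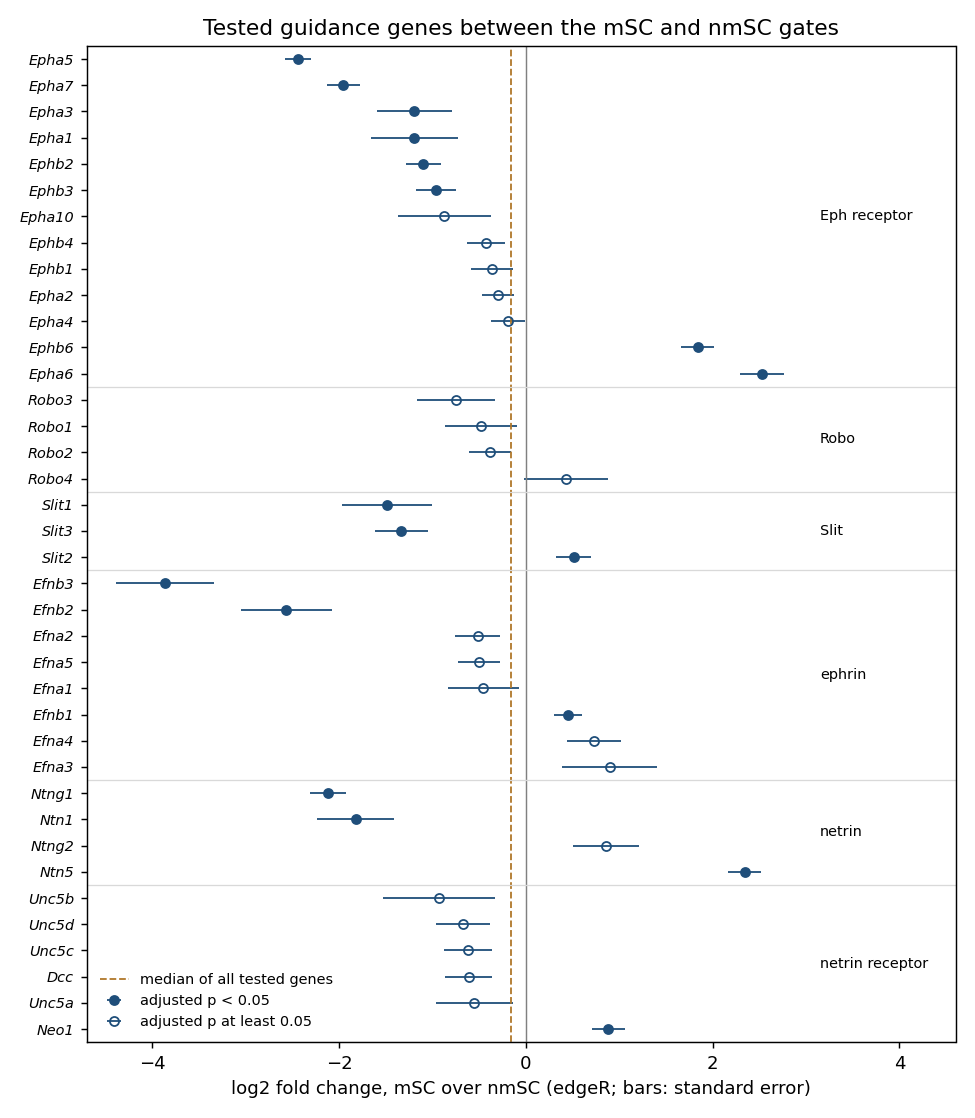
Log2 fold change, mSC over nmSC, of the 38 tested guidance genes, grouped by family; filled points have an adjusted p under 0.05, bars are standard errors and the dashed line is the median of all tested genes (−0.16). Epha5, Epha7, Efnb2, Efnb3, Ntng1 and Ntn1 lie far to the nmSC side, and Ephb6, Epha6 and Ntn5 far to the mSC side.

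Of 13 tested Eph receptors, 6 were higher in nmSC and 2 higher in mSC, against 20.2% and 20.4% of all tested genes, with a median log2 fold change of −0.87. That median is the value of Epha10, a low-level gene that was not called, and the median over all tested genes was −0.16. Epha5, an A-class receptor known from the mapping of retinal axons, was 39.7, 32.3, 43.8 and 29.2 CPM in mSC replicates 1 to 4, against 192, 194, 192 and 211 CPM in nmSC and 132, 124, 118 and 116 CPM in allSC. All nmSC libraries were above all allSC libraries, and those above all mSC libraries. The fold change was 5.42 in favour of nmSC (log2 −2.44, SE 0.14, adjusted p = 4.35e-11), and the log2 value without mSC replicate 4 was −2.34. Epha7, another A-class receptor, was 7.81, 7.57, 7.85 and 5.49 CPM in mSC, 17.0, 21.8, 24.8 and 16.0 CPM in allSC and 25.6, 28.0, 27.1 and 31.4 CPM in nmSC. Its 3 gates did not overlap either, and it was 3.87 times higher in nmSC than in mSC (log2 −1.95, SE 0.17, adjusted p = 2.66e-08; −1.85 on the log2 scale without mSC replicate 4, its low point). Epha5 and Epha7 lay at chr5:84054761-84417382 and chr4:28813131-28967499 (GRCm38).

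Both B-class receptors of the nmSC group changed less. Ephb2, the receptor named above in nerve repair, was 10.9, 8.35, 8.86 and 9.86 CPM in mSC, 8.81, 14.5, 13.7 and 16.1 CPM in allSC and 21.8, 17.5, 23.5 and 18.4 CPM in nmSC. The nmSC libraries were all above the mSC and allSC libraries, and the log2 fold change was −1.10 (SE 0.19, adjusted p = 9.40e-05). Ephb3, a close relative of EphB2, was 26.5, 40.4, 52.8 and 28.1 CPM in mSC, 41.5, 53.9, 66.0 and 69.5 CPM in allSC and 53.8, 71.1, 79.8 and 83.5 CPM in nmSC. Mouse 1 gave the lowest Ephb3 value in each gate, and every nmSC library exceeded every mSC library (log2 −0.96, SE 0.21, adjusted p = 0.00131).

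In the opposite direction went Ephb6 and Epha6. Ephb6 encodes a receptor without kinase activity. It was 415, 408, 418 and 217 CPM in mSC, 251, 228, 232 and 247 CPM in allSC and 87.7, 97.2, 124 and 98.0 CPM in nmSC. Replicate 4 was low for mSC and fell below the allSC libraries, yet all mSC libraries stayed above all nmSC libraries (3.59-fold, log2 1.84, SE 0.18, adjusted p = 7.59e-08; 2.03 on the log2 scale without mSC replicate 4). Epha6, an A-class receptor, was 32.3, 29.8, 31.5 and 16.4 CPM in mSC, 19.9, 16.6, 17.9 and 21.1 CPM in allSC and 4.42, 5.71, 2.77 and 6.20 CPM in nmSC. It too was lowest among the mSC libraries in replicate 4 and did not overlap with nmSC (5.77-fold, log2 2.53, SE 0.24, adjusted p = 6.42e-08; 2.71 on the log2 scale without mSC replicate 4). Its exons share 107 of 5289 bases with Gm9017 on the other strand. The Smart-Seq2 preparation given for these libraries names no step that keeps strand. Reads there therefore cannot be assigned to either gene, however counting was set.

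**Figure D2:**
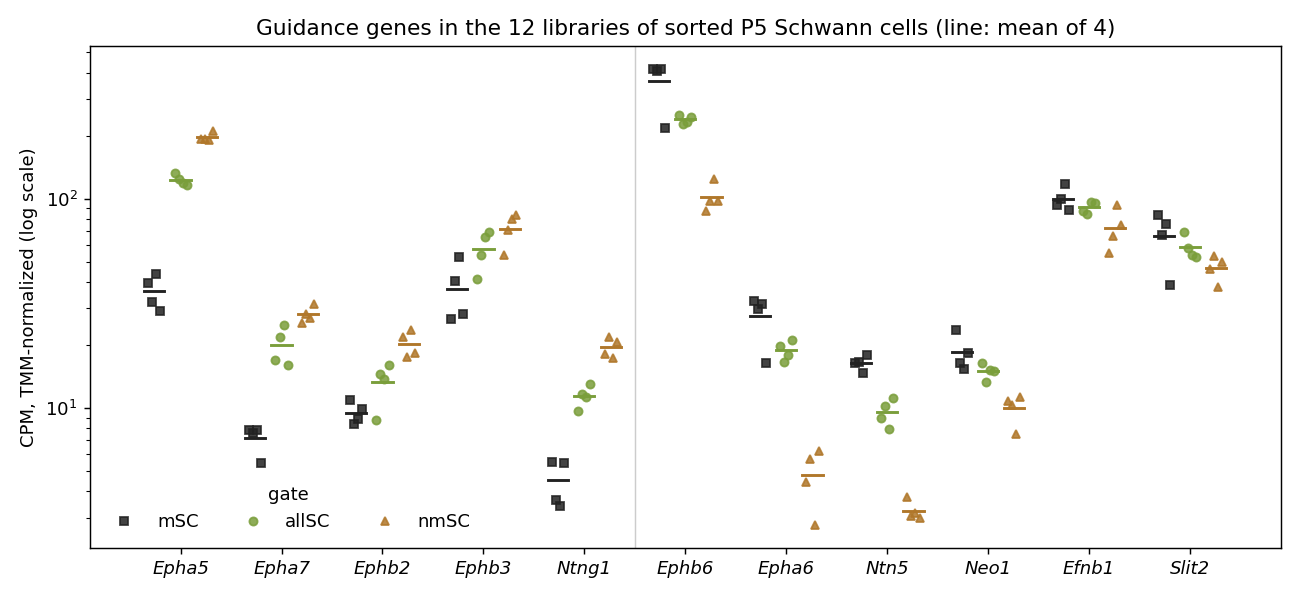
CPM (TMM-normalized, log axis) in each of the 12 libraries for 11 guidance genes; points are libraries, lines are means of 4, and the 5 genes left of the divider were higher in nmSC and the 6 right of it higher in mSC. For all 11 genes the means of allSC fall between those of the other gates, as for 69.5% of all tested genes. Among the mSC libraries, replicate 4 is the low point of Ephb6, Epha6, Slit2, Epha5, Epha7 and Efnb1.

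The other Eph receptors differed less or were near the detection limit. Epha3 and Epha1 were called higher in nmSC at log2 −1.19 each (adjusted p = 0.0246 and 0.0470), at mean levels of 2.91 and 1.15 CPM in nmSC and 1.28 and 0.479 CPM in mSC, and Epha1 shares 236 of 3928 exon bases with Zyx. The Epha3 libraries overlapped, with nmSC replicate 3 at 0.823 CPM. Epha1 passed the expression filter only through its nmSC libraries. The call of Epha1 was lost without any single library other than mSC replicate 2 (adjusted p of up to 0.122, without mSC replicate 4), and that of Epha3 without some single libraries (up to 0.0857, without nmSC replicate 4). Receptors that did not pass were Ephb4 (log2 −0.43, 95% interval −0.82 to −0.03, adjusted p = 0.0953), Ephb1 (−0.36, −0.80 to 0.07), Epha2 (−0.30, −0.63 to 0.03), Epha4 (−0.19, −0.56 to 0.18) and Epha10 (−0.87, −1.85 to 0.10). These intervals leave room for differences of the size seen for Ephb3 in Epha10 but not in Epha2 or Epha4. EphA4 is known for guiding motor axons, and its levels of 13.8 ± 1.88, 13.9 ± 3.91 and 16.0 ± 1.78 CPM (SD, n = 4) in allSC, mSC and nmSC overlapped.

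Per kilobase of exon (RPKM), Ephb6 was the leading Eph receptor in every gate, but the makeup of the family differed. Lengths were all annotated exons of a gene merged, 3773 bases for Ephb6 and 16739 for Epha5. In CPM the nmSC mean of Epha5 (197) exceeded that of Ephb6 (102), so the order there depends on these lengths. The 14 receptors summed to 139, 138, 146 and 77.1 RPKM in mSC, 103, 98.1, 101 and 106 RPKM in allSC and 63.8, 69.7, 82.7 and 74.7 RPKM in nmSC, so the sum in mSC replicate 4 lay within the nmSC range. The share of Ephb6 in that sum was 77.1% ± 2.07 in mSC, 62.1% ± 1.86 in allSC and 36.9% ± 2.05 in nmSC (SD, n = 4), and mSC replicate 4 did not stand apart in it, the lowest mSC share being 74.6%. In nmSC the next shares were Epha5 at 16.3% ± 1.76, Ephb3 at 14.8% ± 1.73 and Epha2, a receptor of epithelial cells, at 11.4% ± 1.13, while in mSC none of these exceeded a mean of 5.48%. Epha10, the other receptor without kinase activity, added at most 0.335% on average.

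**Figure D3:**
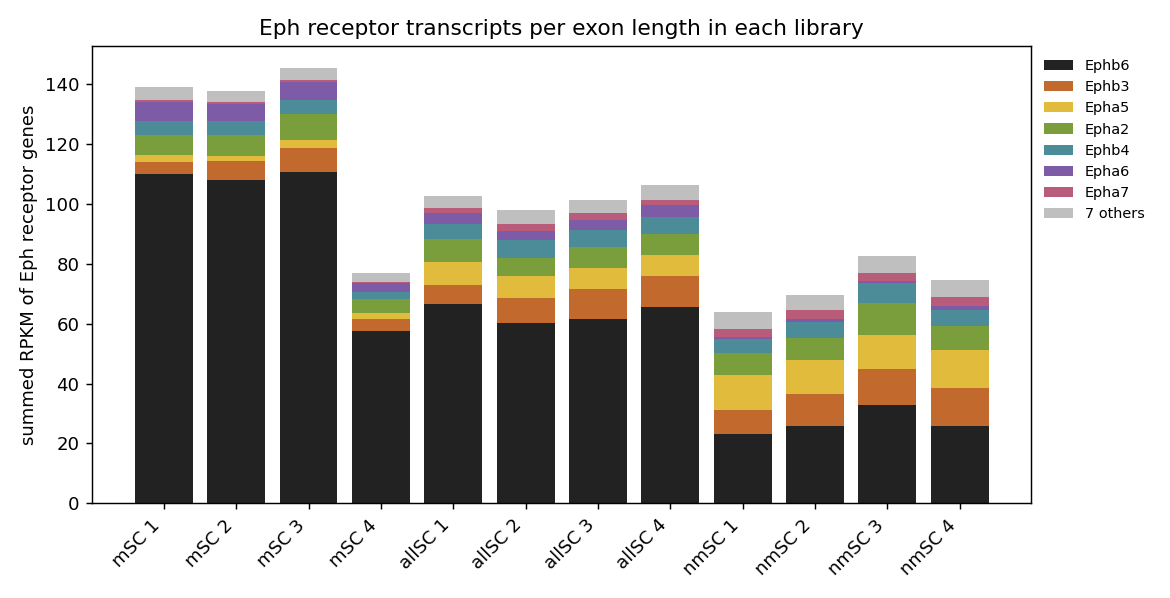
Stacked bars of the RPKM of the 14 Eph receptors in each library, with 7 receptors named and the 7 others summed. Ephb6 (black) takes at least 74.6% of each mSC bar and at most 39.7% of each nmSC bar, and the bar of mSC replicate 4 is about as tall as the nmSC bars.

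The 250 bases before the RefSeq start (GRCm38.p6) are printed for Epha5 and Epha7, which lead the receptors higher in nmSC, and for Ephb6 and Ntn5, which were higher in mSC. Capitals mark CG dinucleotides, which cluster in promoters known as CpG islands, and each sequence is written 5′ to 3′ on the strand of its gene.
Epha5, chr5:84417383-84417632, minus strand: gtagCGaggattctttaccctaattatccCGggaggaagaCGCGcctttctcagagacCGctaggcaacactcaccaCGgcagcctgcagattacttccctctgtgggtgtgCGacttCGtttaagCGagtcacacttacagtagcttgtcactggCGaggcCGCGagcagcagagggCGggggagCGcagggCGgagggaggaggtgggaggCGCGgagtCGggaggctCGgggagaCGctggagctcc
Epha7, chr4:28812881-28813130, plus strand: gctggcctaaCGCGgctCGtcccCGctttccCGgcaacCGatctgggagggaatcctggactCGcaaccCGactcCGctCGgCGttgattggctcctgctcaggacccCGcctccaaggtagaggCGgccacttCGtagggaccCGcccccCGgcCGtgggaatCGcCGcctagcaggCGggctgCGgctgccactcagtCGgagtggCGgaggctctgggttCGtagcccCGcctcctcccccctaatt
Ephb6, chr6:41605261-41605510, plus strand: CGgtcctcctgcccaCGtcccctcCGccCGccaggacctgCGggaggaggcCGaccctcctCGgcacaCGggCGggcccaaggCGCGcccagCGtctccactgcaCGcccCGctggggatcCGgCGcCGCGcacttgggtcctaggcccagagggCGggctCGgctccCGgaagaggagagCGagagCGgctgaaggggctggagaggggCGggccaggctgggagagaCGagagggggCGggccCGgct
Ntn5, chr7:45683772-45684021, plus strand: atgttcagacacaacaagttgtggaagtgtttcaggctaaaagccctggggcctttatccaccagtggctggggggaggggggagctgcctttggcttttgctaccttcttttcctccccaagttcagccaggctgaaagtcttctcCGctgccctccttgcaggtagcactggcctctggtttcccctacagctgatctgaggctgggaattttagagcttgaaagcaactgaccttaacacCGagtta
The last 29 bases of the Ephb6 window fall in its first exon in GENCODE M21. The 3 Eph receptor windows held 20, 25 and 27 CG dinucleotides and the Ntn5 window 2, against a median of 6 in all 32817 windows of this length, and both directions of change included CG-rich windows (2 to 45 in the 6 genes higher in mSC, 9 to 35 in the 9 of 12 genes higher in nmSC that had an entry). Motif letters were searched on both strands. TEAD (GGAATG) occurred in 4 of the 9 genes higher in nmSC (Efnb2, Epha1, Epha3 and Ntng1) and 0 of the 6 higher in mSC, and in 12.64% of all windows. EGR (GTGGGCG), the site of the myelination factor EGR2, occurred in Ephb3 and Efnb1, 1 gene per direction, and in 7.02% of all windows. SOX (ACAAAG), AP-1 (TGANTCA) and the E-box CACGTG occurred in none of these 15 genes and in 16.47%, 6.75% and 6.02% of all windows. The Ntng1 window lies wholly within a GENCODE exon of that gene. A match or its absence concerns these letters in these windows only.

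Among the 8 ephrins, 2 were higher in nmSC and 1 in mSC, a share near the 40.5% of all genes called in either direction. Efnb1 was by far the most abundant per kilobase, at 26.4, 28.8 and 21.0 RPKM in allSC, mSC and nmSC, or 72.4%, 75.9% and 64.7% of all ephrin transcripts. In CPM, Efnb1 was 93.0, 100, 117 and 87.9 in mSC, 86.9, 84.8, 97.0 and 95.7 in allSC and 55.1, 66.3, 93.3 and 75.3 in nmSC. The gates overlapped, because nmSC replicate 3 exceeded mSC replicates 1 and 4, but mSC was above nmSC in each of the 4 mice (log2 0.46, SE 0.15, adjusted p = 0.0210; up to 0.0753 without a single library, mSC replicate 3). Without mSC replicate 4, the low point of Efnb1 in mSC, the log2 value was 0.52. With the library size alone the Efnb1 value turned to −0.10. Its distance from the median of all genes was 0.62 and 0.63 on the log2 scale under TMM and this scaling. Rescaling moves all genes by nearly the same amount, so this distance does not back the call.

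The transmembrane ligands Efnb2 and Efnb3 were scarce, most of all in mSC. Efnb3 had 2, 5, 2 and 0 counts in the mSC libraries against 47, 30, 42 and 23 in nmSC, and 23, 33, 28 and 23 in allSC. Efnb2 had 8, 2, 4 and 2 counts in mSC, 22, 25, 32 and 22 in nmSC and 5, 19, 15 and 15 in allSC. Neither overlapped between mSC and nmSC, and the log2 fold changes were −3.86 (SE 0.52, adjusted p = 6.93e-06) and −2.57 (SE 0.49, adjusted p = 0.000312), which rest on few counts in mSC. Efnb2 passed the expression filter only through its nmSC libraries, so its call and lack of overlap are not independent of that filter. Without mSC replicate 2 the Efnb3 value was −4.58. The 5 ephrin-As were not called. Efna4 came closest (log2 0.73, 95% interval 0.16 to 1.30, adjusted p = 0.0527) and was above nmSC in all 4 mice, Efna3 was 0.90 (−0.11 to 1.90), and Efna1, Efna2 and Efna5 were −0.46 to −0.51. Efna3 and Efna4 share 344 and 168 exon bases with genes on the other strand.

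The netrin family split by member, with 2 of 4 tested genes higher in nmSC and 1 higher in mSC. Over all tested genes, 20.2% were higher in nmSC and 20.4% in mSC. Ntng1 (netrin-G1) was 5.50, 3.65, 3.42 and 5.49 CPM in mSC, 9.69, 11.7, 11.3 and 13.0 CPM in allSC and 18.1, 21.9, 17.3 and 20.8 CPM in nmSC. Its gates did not overlap (4.33-fold, log2 −2.12, SE 0.19, adjusted p = 2.99e-08). Ntn5 (netrin-5), whose mean over mSC and nmSC fell just under the 10 CPM set for printing each library and which was added after its values were seen, was 16.4, 16.5, 14.7 and 18.0 CPM in mSC, 8.96, 10.3, 7.94 and 11.2 CPM in allSC and 3.75, 3.07, 3.14 and 2.97 CPM in nmSC. It followed the opposite order, again without overlap (5.07-fold, log2 2.34, SE 0.18, adjusted p = 2.41e-09), but 519 of its 2216 exon bases are shared with Sec1 on the other strand, so part of its counts is uncertain. Ntn1, the founding netrin, was 0.408, 1.83, 2.87 and 1.12 CPM in mSC and 5.10, 4.43, 6.88 and 5.74 CPM in nmSC (log2 −1.82, SE 0.41, adjusted p = 0.00168).

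Per kilobase, Ntn5 led the netrins in mSC and allSC and Ntng1 in nmSC. In allSC their shares were 63.1% and 20.3%. Ntn5 made up 81.5% ± 4.86 of the netrin and netrin-G sum in mSC and 27.3% ± 2.74 in nmSC, Ntng1 6.04% ± 1.51 and 44.3% ± 4.19, and Ntn1 2.74% ± 1.90 and 16.6% ± 3.85 (SD, n = 4). Ntng2 was not called (log2 0.86, 95% interval 0.16 to 1.55, adjusted p = 0.0601), and 558 of its 3990 exon bases are shared with 6530402F18Rik on the same strand. The sums were 9.08 ± 0.465 RPKM in mSC, 6.84 ± 0.768 in allSC and 5.34 ± 0.224 in nmSC.

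Against 40.5% of all tested genes called in either direction, of the 6 netrin receptors only Neo1 (neogenin, a receptor of netrins and RGM proteins) was called. It was 23.7, 16.4, 15.3 and 18.4 CPM in mSC, 16.5, 13.3, 15.2 and 15.0 CPM in allSC and 10.9, 10.3, 7.55 and 11.3 CPM in nmSC, with every mSC library above every nmSC library (1.85-fold, log2 0.88, SE 0.17, adjusted p = 0.000470). With the library size alone the value was 0.32 (adjusted p = 0.134). Its distance from the median of all genes was 1.05 under both scalings. A change of scaling hardly alters this distance for any called member, so it does not back the call. Dcc and the 4 Unc5 genes were not called and had log2 values of −0.55 to −0.93. Unc5c, at 4.92 ± 2.08 CPM in mSC and 7.68 ± 1.12 in nmSC (SD, n = 4), did not pass (adjusted p = 0.0603) and passed with the replicate block (adjusted p = 0.0355).

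All 3 Slits were called, in both directions, where 40.5% of all tested genes were called in either direction. Slit2 was 83.6, 67.2, 75.5 and 38.8 CPM in mSC, 69.3, 58.3, 54.0 and 52.9 CPM in allSC and 46.1, 53.0, 37.8 and 49.6 CPM in nmSC. In 3 mice mSC exceeded nmSC, and in mouse 4 it did not. The log2 fold change was 0.51 (SE 0.19, adjusted p = 0.0363), 0.70 without mSC replicate 4 and −0.04 with the library size alone, and the call was lost with the replicate block (adjusted p = 0.0506). Its distance from the median of all genes was 0.67 under TMM and 0.69 under the library size alone, which rescaling hardly alters for any called member. Slit3 (2.27 ± 0.708 CPM in mSC and 5.79 ± 1.26 in nmSC; log2 −1.33, adjusted p = 0.000876) and Slit1 (0.710 ± 0.499 and 1.96 ± 0.602; log2 −1.49, adjusted p = 0.0197) went the other way (SD, n = 4), both without overlap. The call of Slit1 was lost without mSC replicate 2, mSC replicate 3 or nmSC replicate 2 (adjusted p of up to 0.0710). The 4 Robo receptors, through which Slits act, were not called: Robo1 was −0.48 (95% interval −1.24 to 0.28), Robo2 −0.39 (−0.83 to 0.06), Robo3 −0.74 (−1.56 to 0.07) and Robo4, known from endothelial cells, 0.43 (−0.46 to 1.32).

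**Figure D4:**
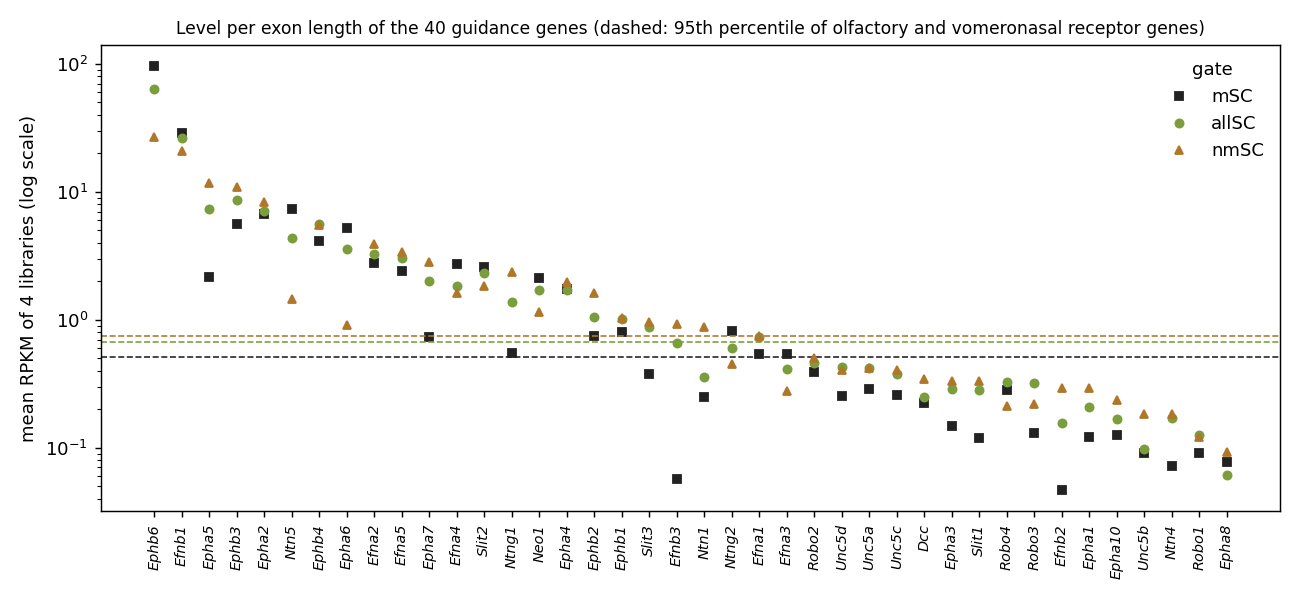
Mean RPKM of 4 libraries per gate (log axis) for all 40 guidance genes, ordered by their level; dashed lines mark, per gate, the 95th percentile of 1453 olfactory and vomeronasal receptor genes (0.514 in mSC, 0.664 in allSC and 0.741 in nmSC). All 4 Robos, Dcc, the 4 Unc5 genes and 7 further members lie at or under the lines in every gate.

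Many guidance genes were close to the level of genes that SCs are not known to use. As such a yardstick, 1453 olfactory and vomeronasal receptor genes had pooled levels of 0.207 RPKM in mSC, 0.292 in allSC and 0.334 in nmSC. They were lower in mSC too (167 of 1013 tested higher in nmSC and 0 higher in mSC, median log2 fold change −0.72). No gate raised 16 members above the 95th percentile of these genes: Epha1, Epha3, Epha8, Epha10, Efnb2, Slit1, Robo1 to Robo4, Ntn4, Dcc and Unc5a to Unc5d. Of them 14 were tested and 4 called (Epha1, Epha3, Slit1 and Efnb2), each higher in nmSC, the direction the receptor genes also took. The part of this low-level signal in those calls was not tested. Of the 24 members above the percentile in any gate, 14 were called, 8 higher in nmSC and 6 in mSC. Over all tested genes, 40.5% were called in either direction. Among these 8, Ntn1 and Efnb3 were above it only in nmSC (0.882 and 0.922 RPKM), the gate where they were called higher. Slit3 was under it in mSC (0.374 RPKM). The part of the low-level signal in these calls was not tested either.

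Set against allSC, which holds cells of both other gates, mSC differed in 10 of 38 members (17.6% of all genes, 8.76% higher and 8.80% lower in mSC) and nmSC in 8 (10.4% of all genes, 2.83% higher and 7.54% lower in nmSC). These comparisons share the allSC libraries. Between mSC and allSC, Ephb6 and Ntn5 were higher in mSC (log2 0.61 and 0.77, adjusted p = 0.0191 and 0.00221) and 8 genes were lower: Epha5 (−1.75), Epha7 (−1.46), Ephb3 (−0.64), Efnb2 (−1.65), Efnb3 (−3.39), Slit3 (−1.20), Robo3 (−1.30) and Ntng1 (−1.34). The calls of Efnb2 and Robo3 were lost with the replicate block (adjusted p = 0.0627 and 0.0563). Between nmSC and allSC, Epha5, Ephb2, Ntng1 and Ntn1 were higher in nmSC (log2 0.69, 0.61, 0.77 and 1.30) and Ephb6, Epha6, Ntn5 and Neo1 lower (−1.24, −1.98, −1.57 and −0.58), and the call of Ephb2 was lost with the replicate block (adjusted p = 0.0619). The counts of 10 and 8 fell to 6 without allSC replicate 2 or 3 and to 5 without allSC replicate 1 or nmSC replicate 1.

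For 31 of the 38 tested members the allSC mean lay between the means of mSC and nmSC, as for 69.5% of all tested genes. Among the 6 members that differed at least 2-fold, were called and averaged 10 CPM or more, allSC lay 38.9% (Epha7) to 64.9% (Ephb2) of the way from nmSC to mSC on the CPM scale, with a median of 53.1%. Over the 3978 genes called at that fold the median was 43.9%, with quartiles of 34.8% and 52.7%.

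The wider pathways were followed with 4 lists. Of 37 signal transducers of these receptors, 11 were higher in mSC and 7 in nmSC, against 20.4% and 20.2% of all tested genes (median log2 fold change −0.09). Chn2, encoding a chimaerin that switches off Rac downstream of receptors, rose from 3.91 to 54.5 CPM between nmSC and mSC (log2 3.80, SE 0.17, adjusted p = 3.71e-12), and Cdc42, encoding a small GTPase that acts on the actin cytoskeleton, was 1.21 higher on the log2 scale (SE 0.12, adjusted p = 1.80e-07). Ablim1, an actin-binding protein, and the kinase gene Src were higher in nmSC (log2 −2.98 and −1.70, adjusted p = 3.44e-10 and 3.14e-07). Of 17 tested genes for other ligands and co-receptors, 1 was higher in mSC and 10 in nmSC (median −0.81). The 1 was Nell2, encoding a secreted ligand of Robo3, at 50.6 CPM in mSC and 4.98 in nmSC (log2 3.34, SE 0.19, adjusted p = 7.58e-11). Lrrc4c, encoding the netrin-G1 partner NGL-1, and the heparan sulfate proteoglycan gene Sdc4 were higher in nmSC, as Ntng1 was (log2 −1.50 and −1.24, adjusted p = 1.28e-06 and 6.14e-08).

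Of 9 tested proteases that cut guidance receptors or ligands, 2 were higher in each gate, close to the 40.5% of all genes called in either direction. Adam10, which cleaves ephrins, was 1109 CPM in mSC and 423 CPM in nmSC (log2 1.39, SE 0.14, adjusted p = 1.04e-07), and the γ-secretase subunit gene Aph1a followed it (log2 0.90, adjusted p = 0.000110). The matrix metalloproteinase genes Mmp14 and Mmp2 were higher in nmSC (log2 −2.63 and −1.59, adjusted p = 2.41e-09 and 1.78e-08). Of the genes known to act after EphB2 in nerve repair, Cdh2 (N-cadherin) was 9.74 CPM in mSC and 51.8 in nmSC (log2 −2.40, SE 0.20, adjusted p = 1.27e-08) and Sox2 was 4.51 and 8.47 CPM (log2 −0.93, SE 0.27, adjusted p = 0.0104), in the same direction as Ephb2. A link of Cdh2 and Sox2 to Ephb2 in these cells was not tested, and 20.2% of all tested genes were higher in nmSC. The catenin genes Ctnnb1 and Ctnna1 did not pass (log2 0.25 and 0.30, adjusted p = 0.175 and 0.0641). This count of 2 of 4 became 1 without nmSC replicate 1 and 4 without mSC replicate 4.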

How the data were processed

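RNA of SCs sorted from P5 sciatic nerves was measured in 12 libraries, 4 in each of the gates allSC, mSC and nmSC. The authors sorted cells by eYFP and side scatter after enzymatic dissociation, prepared poly(A) full-length cDNA with Smart-Seq2 and sequenced single ends. The deposited counts are raw read counts per gene, made by the authors with STAR (2.6.1c) and featureCounts on GRCm38.p5 per the submitters' processing notes; the study's methods name a human build, but the gene IDs are mouse. Whether counting used strand or multi-mapping reads is not given in the sources used here. There were no molecular identifiers, and the floors cover counting error only. The intervals come from the fitted model, whose spread was estimated among the libraries of a gate.

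Gates came from the labels. Symbols, exon lengths and coordinates came from GENCODE M21 (GRCm38; 25664 of 25700 IDs matched), and Ntn3 was not analysed here. Genes were filtered with filterByExpr by gate, scaled by TMM and tested with the quasi-likelihood test of edgeR (4.0.16; R 4.3.3) in 1 model over 12 libraries, with Benjamini-Hochberg adjustment over 18597 genes at 0.05. CPM uses TMM-scaled library sizes, and RPKM is that CPM per kilobase of exon, with all annotated exons of a gene merged. Levels and shares per kilobase, and the comparison with receptor genes, depend on these lengths. Standard errors are the log2 fold change divided by the root of its F statistic, and 95% intervals use the normal quantile. The TMM factors were 0.744 to 0.871 in mSC and 1.16 to 1.28 in nmSC.

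The subject number in the labels was read as the mouse, which would pair the same-numbered libraries of the 3 gates. The labels do not spell this out, and the values give it little backing: deviations from gate means correlated at −0.225 to 0.153 between mSC and nmSC and 0.0391 to 0.246 between allSC and mSC. No 2 libraries of a gate agreed within sampling noise (chi-square per degree of freedom at least 4.03). Alternatives were RLE size factors, the library size alone, DESeq2 (1.42.0), no filter, the 2 compared gates only, the replicate block and leaving out each library. The test was tried on simulated counts first.

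Every member is named, and those called between mSC and nmSC with a mean of at least 10 CPM there are given for each library; per further list and direction at most 2 genes were named, those of largest fold change called at 10 CPM or more and in the same direction in all 4 mice, while the 4 genes around Sox2 and N-cadherin are all named. Of the myelin marker list, 1 gene is not reported here. The members and all lists were chosen with earlier results of these data known. Promoter sequences are from RefSeq (35 of 40 members matched).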

Additional observations from a re-analysis of the deposited data

Results flagged for a closer look

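Within a gate of 4 libraries, 8 of 120 gene and gate groups had 1 library far from the other 3; chance gives about 1 in 20. Of these, 4 were low values of mSC replicate 4 in Eph receptor genes: Ephb6 at 217 CPM (the others 408 to 418), Ephb4 at 10.2 CPM (21.9 to 22.1), Epha6 at 16.4 CPM (29.8 to 32.3) and Epha7 at 5.49 CPM (7.57 to 7.85). This library also had the fewest genes at 10 or more counts, and the part of that in these values was not tested. Epha5 was highest in nmSC replicate 4 at 211 CPM, with the others at 192 to 194. In allSC, Efna2 was low in replicate 1 at 4.52 CPM (7.64 to 7.86) and Robo2 in replicate 4 at 5.44 CPM (8.51 to 8.79). Unc5c was high in mSC replicate 1 at 8.02 CPM (3.62 to 4.20).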

How the results depend on the processing

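Of 48 counts of called genes recomputed with other scaling, tool, filter, choice of gates or block, 45 stayed within 1.5 times. The 3 that did not came from using the library size alone, which gave 3 members higher in mSC, 28 higher in nmSC and 17 that differed between allSC and mSC, and turned Efnb1 and Slit2 to −0.097 and −0.040. With the replicate block, 5 members were higher in mSC and 13 in nmSC, 8 differed between allSC and mSC and 7 between allSC and nmSC; beyond the calls named in the report, the block changed no member's call, and on the lists it added Lrrc4 (adjusted p = 0.0449) and removed Rbfox3 (adjusted p = 0.0670). Leaving out 1 library gave 5 to 7 members higher in mSC and 9 to 14 higher in nmSC, 6 to 12 between allSC and mSC, 5 to 9 between allSC and nmSC, 15 to 19 transducers, 10 to 12 ligands and co-receptors, 4 to 6 proteases and 1 to 4 of the Sox2 and N-cadherin genes. Of the 18 called members, 5 lost their call when some single library was left out: Epha1 (any but mSC replicate 2), Epha3 (mSC replicates 2 and 3, nmSC replicates 1, 2 and 4), Slit1 (mSC 2 and 3, nmSC 2), Slit2 (mSC 1, 2 and 3, nmSC 1 and 3) and Efnb1 (mSC 3, nmSC 1 and 2), with adjusted p of up to 0.122, 0.0857, 0.0710, 0.0988 and 0.0753. Epha1 also lost it with RLE size factors, DESeq2, no filter and only the 2 compared gates, Slit2 and Efnb1 with only the 2 gates, and Neo1 with the library size alone. The other 12 kept their call in every run. Calls on members under about 3 CPM rest on few counts.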
